A study of Mus musculus with 10 samples.

Results

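The 33 genes described here are the enzymes and carriers of glycolysis and the classical targets of the hypoxia response. They were chosen by name and found by matching Ensembl gene identifiers to GENCODE symbols, and all 33 were among the 16669 genes tested, out of 41091 identifiers in all. Of these, 20 carry glucose and lactate, run glycolysis or decide the fate of pyruvate, and 13 are other hypoxia-response genes. They were measured by total RNA sequencing in cultures of the regenerating olfactory epithelium of adult C57BL6 mice. The epithelium was taken 9 days after methimazole, a drug that destroys it so that it regrows from basal stem cells, then dissociated and grown attached to gelatin with EGF, FGF2 and heparin. Every culture received a lentivirus with a short hairpin RNA (shRNA). The groups were shCBX8, with a hairpin against Cbx8 (replicates 1, 2 and 6, n = 3), shCBX7, with a hairpin against Cbx7 (replicates 1, 2 and 5, n = 3), and shCTR, with a scrambled hairpin that targets no gene (replicates 1, 2, 5 and 6, n = 4). Both targets are Polycomb proteins: they carry a chromodomain and belong to complexes that keep genes silent. The comparisons ask what loss of each paralog does to gene expression. The labels state neither how many hairpin sequences served per target, nor the age of the mice in weeks, nor whether replicates were separate animals or cultures. Each p-value therefore reflects only how far these libraries scatter, which may be technical.

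Glycolysis splits glucose into pyruvate in the cytosol and yields ATP without oxygen. Pyruvate then either enters the mitochondrion or is reduced to lactate, which is exported. In low oxygen, prolyl hydroxylases of the EGLN family stop marking the alpha subunits of the hypoxia-inducible factors (HIF) for destruction by VHL, and HIF alpha pairs with ARNT to raise transcription of glucose carriers, glycolytic enzymes, angiogenic factors and the hydroxylases themselves. Growth signals and cell type set many of these genes too.

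Libraries held 22763014 to 50463172 gene counts. Cbx8 measured 4.99, 5.14 and 4.71 CPM (the read count of a gene scaled to a common library size) in shCBX8 libraries, against 12.4, 15.9, 10.2 and 10.8 CPM in shCTR libraries, and fell (log2 fold change -1.31, SE 0.22, adjusted p = 0.00416 by edgeR's quasi-likelihood test). Cbx7 measured 3.64, 8.02 and 13.1 CPM in shCBX7 libraries, against 17.7, 16.4, 13.5 and 5.30 CPM in shCTR libraries, and did not pass (log2 fold change -0.67, adjusted p = 0.929), so its level does not check the shCBX7 label. The 8 olfactory neuron markers summed to 22.6 to 89.2 CPM in shCBX8, 65.2 to 158 CPM in shCBX7 and 63.2 to 124 CPM in shCTR libraries. Among them, Omp, Gng13 and Cnga2, which mark mature neurons, were under 1 CPM in every library, while Adcy3 was at 15.8 to 58.0 CPM, Gap43 at 2.47 to 81.7 CPM and Tubb3 at 1.93 to 39.5 CPM. Of genes of neuronal precursors and dividing basal cells, Neurog1 and Neurod1 were under 1 CPM in every library, and Hes6 was at 18.3 to 75.6 CPM and Top2a at 19.8 to 146 CPM. The horizontal basal cell markers summed to 1071 to 1202 CPM in shCBX8, 268 to 853 CPM in shCBX7 and 316 to 1072 CPM in shCTR libraries. The libraries also differed in cell type markers and background. The 8 fibroblast markers summed to 194 to 2956 CPM in shCBX8, 5401 to 18187 CPM in shCBX7 and 5635 to 32618 CPM in shCTR libraries, and the 9 sustentacular markers, led by Krt8 and Krt18, to 3634 to 10353 CPM in shCBX8, 84.3 to 1744 CPM in shCBX7 and 111 to 1582 CPM in shCTR libraries. Of these 9 sustentacular markers, Cyp1a2 and Muc2 were under 1 CPM in every library. Unmapped reads made up 7.28 to 7.81% in shCBX8, 5.03 to 6.20% in shCBX7 and 9.83 to 21.7% in shCTR libraries. Opposite-strand counts over 1455 chemosensory receptor genes, a measure of background, were 13.2 to 25.4 CPM in shCBX8, 10.5 to 14.9 CPM in shCBX7 and 30.7 to 103 CPM in shCTR libraries. All 8 fibroblast markers had negative log2 fold changes in shCBX8 against shCTR, and 2 of them passed. These differences run along with every shCBX8 result given here, and their part in those results was not tested. In such bulk samples, fewer cells of a type and less RNA per cell cannot be told apart.

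Against shCTR, 10 of the 33 genes changed in shCBX8 (30.3%), beside 32.9% of all genes tested. Of the 10, 6 were higher (Hk2, Aldoa, Gapdh, Ero1l, Higd1a and Car9), beside 17.0% of all genes, and 4 were lower (Pfkp, Eno2, Pdk1 and P4ha1), beside 15.9%. The share is close to that of all genes, and the median log2 fold change of the 33 was -0.06, beside -0.01 over all genes. Changes ran both ways within both branches of the list: 3 of 20 transport, glycolysis and pyruvate genes were higher and 3 lower, as were 3 and 1 of the 13 other hypoxia-response genes. All shCBX8 libraries lay above all shCTR libraries in 9 of the 33 genes and below them in 5, beside 22.9% and 19.5% of all genes (42.4% in either direction). In shCBX7 none of the 33 passed, as none of all genes did.

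How many genes passed depended on single libraries. It was 3 without shCBX8 1, 4 without shCBX8 6, 6 without shCTR 1, 5 without shCTR 2, 5 without shCTR 5 and 3 without shCTR 1 and 2 together, and 13 without shCBX8 2. With the replicate number as a block it was 12 (5 higher, 7 lower), and with the background measure as a covariate it was 1 (Aldoc). That measure was higher in every shCTR library than in every shCBX8 library, so this fit can hardly tell it from the hairpin. Scaling by library size alone moved the median of all genes to 0.17 and gave 10 higher and 3 lower, while 67.2% of all calls were then higher, against 2827 of 5478 calls with TMM scaling. Gapdh, Ero1l and Pdk1 kept their calls whichever library was left out, and all 10 genes kept their direction under every setting tried.

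**Figure D1:**
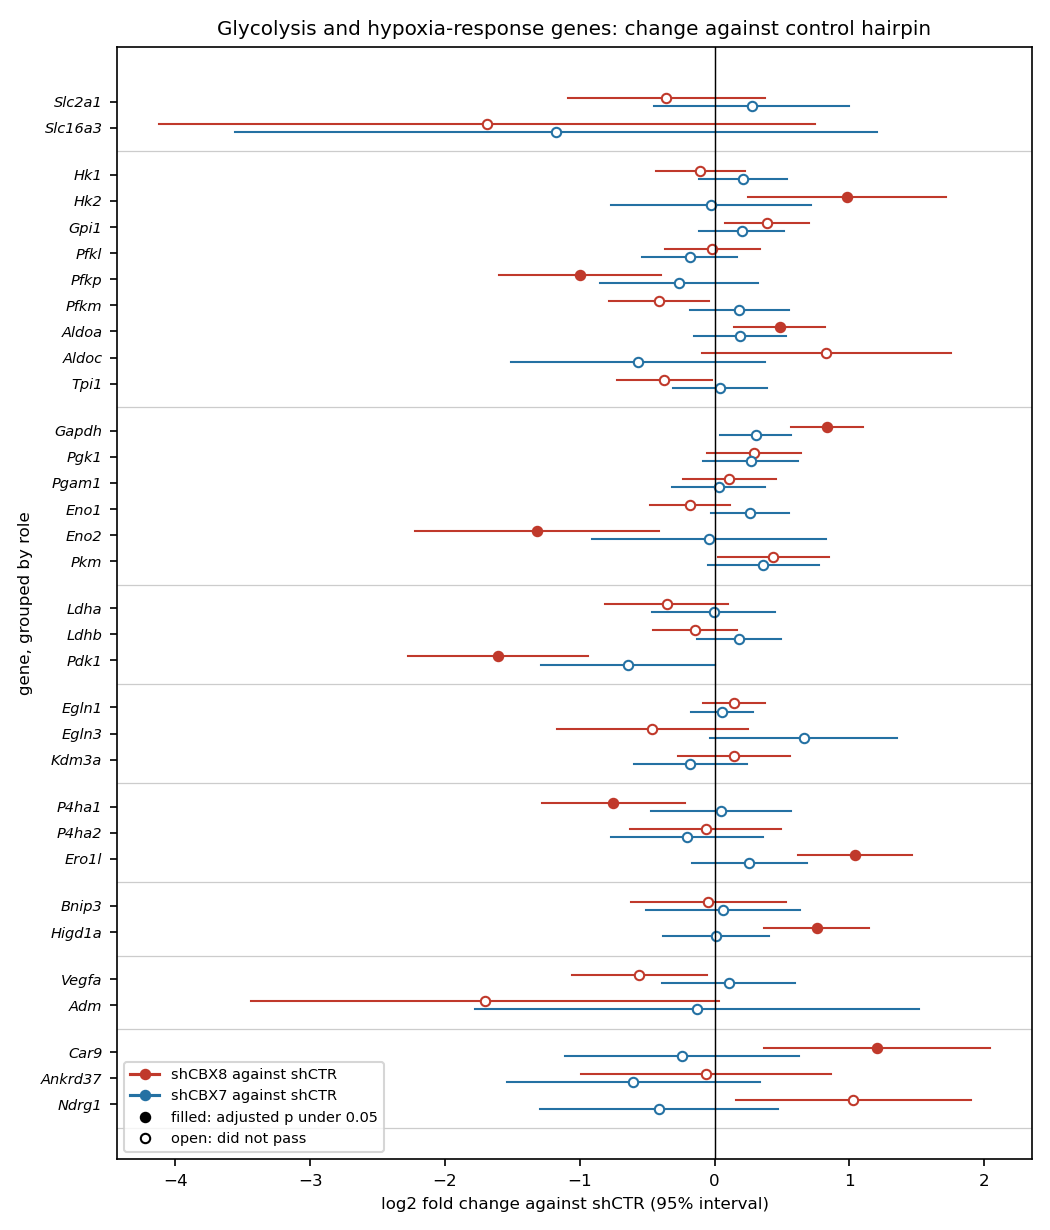
Log2 fold change against shCTR with its 95% interval for each of the 33 genes, in shCBX8 (red) and shCBX7 (blue), grouped by role from glucose carriers at the top to other hypoxia targets at the bottom. Filled points passed at an adjusted p of 0.05: 10 in shCBX8, to both sides of 0, and 0 in shCBX7.

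The promoters of the 5 genes whose calls survived the omission of at least 8 of the 10 libraries, each in turn, a choice made after their values were seen, are printed here because HIF binds the core ACGTG or GCGTG. The sequences are RefSeq's (GRCm38.p6), 250 bases before to 50 bases after the listed start, read 5′ to 3′ on the gene's strand. Capitals mark ACGTG or GCGTG on either strand (CACGT and CACGC are their complements). A CACGTG would hold ACGTG on both strands and be counted on each.
Gapdh, chr6:125165724-125166023, minus strand: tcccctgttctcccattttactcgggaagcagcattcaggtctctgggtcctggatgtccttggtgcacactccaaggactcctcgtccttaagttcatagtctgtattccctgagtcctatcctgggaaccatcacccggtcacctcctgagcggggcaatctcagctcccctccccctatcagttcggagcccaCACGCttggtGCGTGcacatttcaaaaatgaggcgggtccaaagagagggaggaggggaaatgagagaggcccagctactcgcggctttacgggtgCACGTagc
Ero1l, chr14:45318523-45318822, minus strand: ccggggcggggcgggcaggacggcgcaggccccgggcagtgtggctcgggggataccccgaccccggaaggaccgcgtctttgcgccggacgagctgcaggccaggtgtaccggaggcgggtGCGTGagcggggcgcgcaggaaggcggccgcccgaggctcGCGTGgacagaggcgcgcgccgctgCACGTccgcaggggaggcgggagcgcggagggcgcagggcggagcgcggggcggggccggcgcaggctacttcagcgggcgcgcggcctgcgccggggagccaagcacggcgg
Higd1a, chr9:121857747-121858046, minus strand: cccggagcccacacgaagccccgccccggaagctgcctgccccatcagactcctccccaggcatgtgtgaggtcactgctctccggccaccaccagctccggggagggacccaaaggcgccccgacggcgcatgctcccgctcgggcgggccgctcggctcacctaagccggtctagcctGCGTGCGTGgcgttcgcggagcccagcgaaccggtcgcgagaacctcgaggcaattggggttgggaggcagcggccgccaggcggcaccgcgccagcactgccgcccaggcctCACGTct
Pdk1, chr2:71872974-71873273, plus strand: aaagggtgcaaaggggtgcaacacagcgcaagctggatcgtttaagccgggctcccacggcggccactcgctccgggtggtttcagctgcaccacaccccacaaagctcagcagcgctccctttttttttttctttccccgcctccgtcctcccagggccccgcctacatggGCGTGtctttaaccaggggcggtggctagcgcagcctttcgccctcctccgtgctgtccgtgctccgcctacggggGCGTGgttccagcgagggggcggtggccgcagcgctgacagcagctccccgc
Pfkp, chr13:6648722-6649021, minus strand: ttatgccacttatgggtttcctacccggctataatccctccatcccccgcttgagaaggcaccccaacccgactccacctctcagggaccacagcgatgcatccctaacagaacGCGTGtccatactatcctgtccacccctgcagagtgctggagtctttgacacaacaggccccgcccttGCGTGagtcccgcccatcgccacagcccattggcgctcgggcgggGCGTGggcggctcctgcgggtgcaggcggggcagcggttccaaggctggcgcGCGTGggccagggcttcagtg
The Gapdh, Ero1l and Higd1a windows, of genes higher in shCBX8, each held 1 ACGTG and 2 GCGTG. In Higd1a the 2 GCGTG share a base. The Pdk1 and Pfkp windows, of genes lower in shCBX8, held 2 and 4 GCGTG and no ACGTG. Promoters were listed for 32 of the 33 genes, all but Ndrg1. ACGTG occurred in 18 of the 32 (56.3%), beside 24.7% of the 11801 listed promoters of tested genes, and either core in 25 of the 32 (78.1%), beside 60.9%. The 33 were chosen as glycolysis and hypoxia-response genes, so these higher shares may follow from that choice. Among the genes that moved, 5 of 6 higher and 3 of 4 lower had either core, and so did 17 of 22 that did not pass. ACGTG itself was in 5 of 6 higher, 1 of 4 lower and 12 of 22 that did not pass. Sets this small were not compared by a test. These matches describe letters, not binding.

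The carriers at both ends of the pathway did not pass. Slc2a1, the basal glucose carrier, had 42.0, 105 and 42.2 CPM in shCBX8, 111, 93.5 and 89.0 CPM in shCBX7 and 56.4, 88.4, 82.8 and 95.1 CPM in shCTR libraries. Slc16a3, which exports lactate, had 0.691, 9.47 and 0.473 CPM in shCBX8, 4.38, 8.53 and 2.21 CPM in shCBX7 and 14.1, 19.6, 9.54 and 2.25 CPM in shCTR libraries. In both genes shCBX8 1 and 6 were below every other library, while shCBX8 2 lay above every shCTR library in Slc2a1 and inside their range in Slc16a3. The log2 fold changes in shCBX8 were -0.36 (adjusted p = 0.417) for Slc2a1 and -1.69 (adjusted p = 0.252) for Slc16a3. Without shCBX8 2 they were -0.94 (adjusted p = 0.0104) and -4.28 (adjusted p = 0.0109), and both passed. Slc16a3 also passed with the replicate block (-2.43, adjusted p = 0.0262). Of its reads, 14.1% lay on the opposite strand. In shCBX8 1 and 6 that strand held 41 and 26 reads, beside only 33 and 22 on the gene strand. These levels were near the background, so the size of the Slc16a3 change without shCBX8 2 is uncertain.

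At the entry of glycolysis, Hk2 rose and its relative Hk1 did not pass. Both are hexokinases, which trap glucose in the cell as its phosphate. Hk2 (ENSMUSG00000000628, chromosome 6, 82725025 to 82774454, minus strand, GRCm38) had 101, 76.8 and 118 CPM in shCBX8, 46.4, 37.1 and 63.1 CPM in shCBX7 and 38.8, 27.5, 57.4 and 75.2 CPM in shCTR libraries. All shCBX8 libraries were above all shCTR libraries, but shCTR 6 came within 2 CPM of shCBX8 2. The test gave log2 fold change 0.99, SE 0.33, adjusted p = 0.0445. The call ended without shCBX8 1 or 6, shCBX7 1 or 2, or shCTR 1, 2 or 5 (adjusted p = 0.0531 to 0.148). Hk1 averaged 117 ± 13.4 CPM in shCBX8 (SD, n = 3) and 125 ± 20.7 CPM in shCTR libraries (n = 4), with a log2 fold change of -0.10. Gpi1, the isomerase after hexokinase, had 243, 302 and 263 CPM in shCBX8, 249, 207 and 252 CPM in shCBX7 and 189, 178, 231 and 223 CPM in shCTR libraries. Its shCBX8 values were all above its shCTR values, yet it missed the threshold (log2 fold change 0.39, SE 0.14, adjusted p = 0.0561).

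The 3 phosphofructokinase genes, which encode the main control point of glycolysis, differed among themselves. Pfkp, the platelet form, fell: it had 24.3, 47.5 and 26.9 CPM in shCBX8, 62.8, 38.5 and 63.1 CPM in shCBX7 and 63.2, 58.6, 79.3 and 61.7 CPM in shCTR libraries. All shCBX8 libraries lay below all shCTR libraries, with shCBX8 2 nearest to them (log2 fold change -0.998, SE 0.27, adjusted p = 0.0211). Pfkp (ENSMUSG00000021196, chromosome 13, 6579768 to 6648777, minus strand) had 18.7% of its reads on the opposite strand, and its call ended without shCBX8 1 or shCBX8 6 (adjusted p = 0.0894 and 0.0906). The opposite strand held 627, 494 and 609 reads in shCBX8, beside 1159, 1580 and 1253 on the gene strand. In shCTR libraries it held 267, 202, 344 and 361 reads, beside 1595, 1170, 2229 and 2142. Its share was thus larger in every shCBX8 library than in every shCTR library. With unstranded counts Pfkp still passed (-0.94, adjusted p = 0.0262). Pfkm, the muscle form, had 39.0, 47.8 and 45.5 CPM in shCBX8 and 72.0, 57.5, 53.0 and 52.4 CPM in shCTR libraries. These groups did not overlap, and the test did not pass (log2 fold change -0.41, SE 0.17, adjusted p = 0.0832), except without shCBX7 2 (adjusted p = 0.0466). Pfkl, the liver form, averaged 109 ± 10.1 CPM in shCBX8 and 109.9 ± 20.9 CPM in shCTR libraries.

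Aldolase and triose phosphate isomerase complete the path to triose phosphates. Aldoa, by far the main aldolase here, rose a little: it had 788, 982 and 810.3 CPM in shCBX8, 779, 655 and 666 CPM in shCBX7 and 529, 610.3, 613 and 706 CPM in shCTR libraries. The shCBX8 libraries were all above the shCTR libraries, and shCBX8 2 was the highest (log2 fold change 0.49, SE 0.15, adjusted p = 0.0359). This call at chromosome 7, 126795234 to 126800751, was the least stable of the 10: it held in 1 of 10 omissions, without shCTR 6, and ended in the other 9 (adjusted p = 0.0513 to 0.107), and also with the replicate block (0.47, adjusted p = 0.0703). Aldoc, the brain form, had 8.42, 9.59 and 15.2 CPM in shCBX8 and 8.79, 7.26, 6.23 and 2.71 CPM in shCTR libraries, which overlapped (log2 fold change 0.83, SE 0.41, adjusted p = 0.144). Tpi1, the isomerase, had 252, 293 and 235 CPM in shCBX8 and 377, 369, 324 and 277 CPM in shCTR libraries, with a log2 fold change of -0.37 (adjusted p = 0.0938). It passed with the replicate block (-0.40, adjusted p = 0.0456) and without shCTR 6 (-0.46, adjusted p = 0.0474).

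In the second stage, from triose phosphates to pyruvate, Gapdh rose and Eno2 fell, and the other 4 genes did not pass. Gapdh (ENSMUSG00000057666, chromosome 6, 125161715 to 125166467, minus strand), the dehydrogenase often used as a reference gene, had 259.5, 239 and 238 CPM in shCBX8, 194, 161 and 154 CPM in shCBX7 and 139, 122, 139 and 150.3 CPM in shCTR libraries. The shCBX8 libraries lay together and far above the shCTR libraries, with a mean of 246 ± 12.1 CPM in shCBX8 (SD, n = 3) against 138 ± 11.8 CPM in shCTR (n = 4). Its log2 fold change 0.84, SE 0.12, adjusted p = 0.00250 made it the member with the smallest p. Of the settings tried, only the background covariate ended its call (0.67, adjusted p = 0.0547).

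Eno2, the enolase of neurons and neuroendocrine cells, had 14.5, 48.2 and 13.5 CPM in shCBX8, 55.1, 68.2 and 61.2 CPM in shCBX7 and 68.3, 61.2, 62.4 and 61.2 CPM in shCTR libraries. The shCBX8 libraries lay below the shCTR libraries, but shCBX8 2 was more than 3 times as high as shCBX8 1 or 6 (log2 fold change -1.32, SE 0.40, adjusted p = 0.0338). For Eno2 (ENSMUSG00000004267, chromosome 6, 124760053 to 124769673, minus strand) the call ended without shCBX8 1, shCBX8 6 or any of the shCTR libraries (adjusted p = 0.0502 to 0.118). Eno1, the ubiquitous enolase, had 179, 192 and 151 CPM in shCBX8 and 184, 184, 219 and 204 CPM in shCTR libraries (log2 fold change -0.18, interval -0.48 to 0.11). Pkm, the muscle-type pyruvate kinase and most abundant of the 33 per length, had 1851, 1993 and 1798 CPM in shCBX8 and 1468, 1046, 1474 and 1567 CPM in shCTR libraries. All its shCBX8 libraries lay above its shCTR libraries, and it did not pass (log2 fold change 0.44, SE 0.18, adjusted p = 0.0925). Pgk1, a kinase that makes ATP, and Pgam1, the mutase after it, had log2 fold changes of 0.29 and 0.11, with overlapping groups. Reads that Gapdh, Aldoa, Pgk1, Pgam1, Ldha and Eno1 share with near-identical copies or processed pseudogenes map to several places and are not counted, so their levels are uncertain.

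Per kilobase of exon, which allows genes to be compared, levels over all 10 libraries ran from 637 CPM per kilobase for Pkm, 391 for Aldoa, 255 for Ldha, 179 for Tpi1 and 120.2 for Gapdh down to 1.81 for Egln3, 1.60 for Slc16a3, 1.47 for Ankrd37 and 0.547 for Car9. The highest were glycolytic enzymes and Ldha, and the lowest were the hypoxia targets Egln3, Ankrd37 and Car9 and the carrier Slc16a3. In between the branches overlapped, with the glycolytic enzyme Aldoc at 2.38 and the hypoxia target P4ha1 at 43.8.

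Where pyruvate goes was read from 3 genes, of which Pdk1 fell. Pdk1 (ENSMUSG00000006494, chromosome 2, 71873224 to 71903858, plus strand) encodes a kinase that switches off pyruvate dehydrogenase and so keeps pyruvate out of the mitochondrion. It had 17.4, 12.6 and 13.0 CPM in shCBX8, 25.4, 26.5 and 31.8 CPM in shCBX7 and 51.1, 48.0, 53.3 and 21.7 CPM in shCTR libraries. All shCBX8 libraries lay below all shCTR libraries, of which shCTR 6 was much lower than the other 3. With log2 fold change -1.60, SE 0.30, adjusted p = 0.00569, it kept its call in every omission and lost it with the background covariate (-0.51, adjusted p = 0.328). Ldha, the lactate dehydrogenase subunit that favours lactate, had 399, 507 and 308 CPM in shCBX8 and 503, 638, 502 and 429.8 CPM in shCTR libraries. These overlapped, with a log2 fold change of -0.36 (interval -0.81 to 0.10). Ldhb, the subunit that favours pyruvate, had a log2 fold change of -0.14 (interval -0.45 to 0.17).

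**Figure D2:**
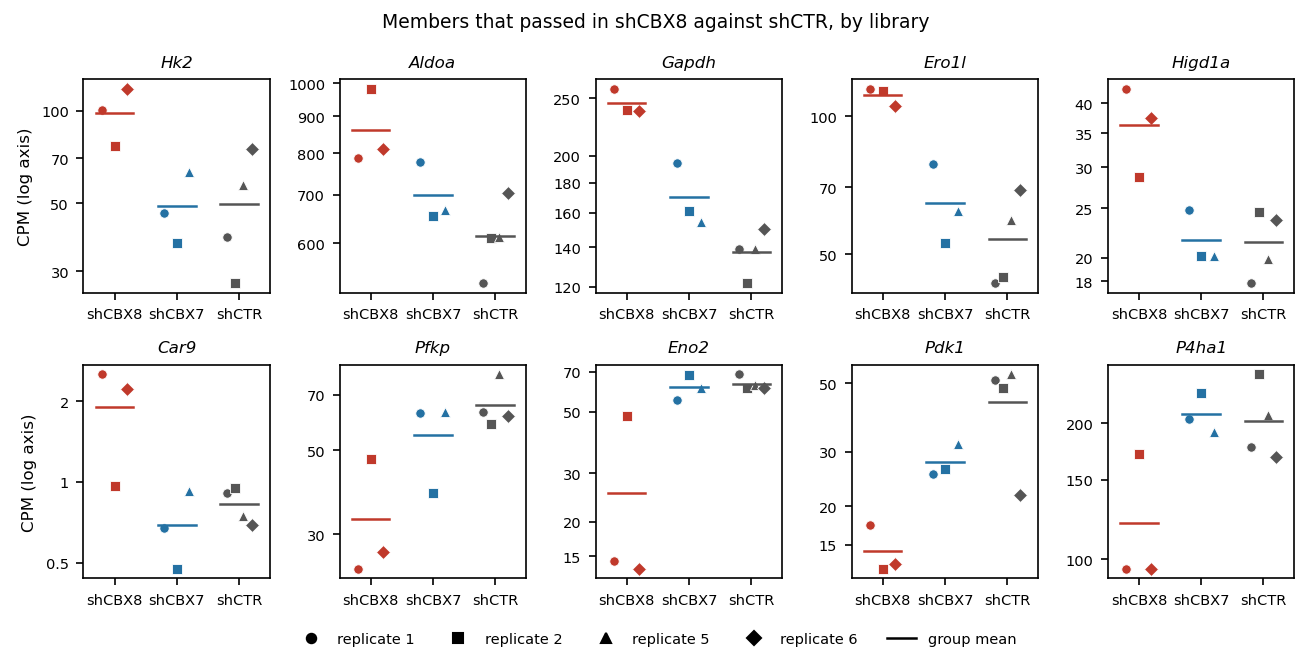
Levels in CPM on log axes, library by library, for the 10 genes that passed in shCBX8 against shCTR, with the group means as lines and the replicate numbers as symbols. The 6 that rose are Hk2, Aldoa, Gapdh, Ero1l, Higd1a and Car9, and the 4 that fell are Pfkp, Eno2, Pdk1 and P4ha1; P4ha1 is the only one of the 10 whose shCBX8 and shCTR libraries overlap.

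The oxygen sensors among the 33 did not pass. Egln1, the main prolyl hydroxylase that marks HIF alpha, had 50.02, 51.1 and 54.5 CPM in shCBX8 libraries, against 40.7, 48.7, 46.9 and 51.3 CPM in shCTR libraries, and the groups overlapped (log2 fold change 0.15, interval -0.08 to 0.37). Egln3, a sister enzyme that HIF induces strongly, had 3.54, 3.999 and 2.09 CPM in shCBX8 libraries, against 3.84, 2.81, 5.62 and 5.36 CPM in shCTR libraries (log2 fold change -0.46, interval -1.17 to 0.25). Kdm3a, a histone demethylase and HIF target, was within 67.0 to 69.0 CPM in shCBX8 and 50.4 to 78.8 CPM in shCTR libraries (log2 fold change 0.14).

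Genes of protein folding and collagen modification in the endoplasmic reticulum moved apart. Ero1l (ENSMUSG00000021831, chromosome 14, 45283087 to 45318771, minus strand), the oxidase that drives disulfide formation, rose: it had 115, 114 and 105 CPM in shCBX8, 78.8, 53.0 and 62.2 CPM in shCBX7 and 43.2, 44.6, 59.2 and 69.1 CPM in shCTR libraries. The shCBX8 libraries lay within 10 CPM of each other and above every other library (111 ± 5.29 CPM in shCBX8, against 54.1 ± 12.4 CPM in shCTR libraries, log2 fold change 1.04, SE 0.19, adjusted p = 0.00538). It kept its call in every omission and lost it with the background covariate (0.46, adjusted p = 0.198). P4ha1 (ENSMUSG00000019916, chromosome 10, 59323296 to 59373304, plus strand), a catalytic subunit of collagen prolyl hydroxylase, fell: it had 95.3, 171 and 95.3 CPM in shCBX8, 204, 233 and 191 CPM in shCBX7 and 177, 256, 209 and 168 CPM in shCTR libraries. Here shCBX8 1 and 6 were lowest of all, and shCBX8 2 was above shCTR 6 (log2 fold change -0.75, SE 0.24, adjusted p = 0.0373). The call ended without shCBX8 1 or 6 or shCTR 2 or 5 (adjusted p = 0.0693 to 0.145). Its partner gene P4ha2 had 34.5, 33.9 and 36.1 CPM in shCBX8 and 22.8, 56.3, 31.2 and 35.8 CPM in shCTR libraries (log2 fold change -0.07).

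Of the mitochondrial members, Higd1a rose and Bnip3 did not pass. Higd1a (ENSMUSG00000038412, chromosome 9, 121848563 to 121858362, minus strand), a small inner-membrane protein tied to the respiratory chain, had 42.7, 28.7 and 37.5 CPM in shCBX8, 24.8, 20.2 and 20.2 CPM in shCBX7 and 17.9, 24.5, 19.9 and 23.7 CPM in shCTR libraries. The shCBX8 libraries were all above both other groups (log2 fold change 0.76, SE 0.17, adjusted p = 0.0120), and the call ended without shCBX8 1 (adjusted p = 0.0584) and without shCTR 1 and 2 together (adjusted p = 0.0608). Bnip3, a receptor for the removal of mitochondria, had 35.7, 40.4 and 28.9 CPM in shCBX8 and 37.5, 47.0, 28.8 and 31.0 CPM in shCTR libraries, a log2 fold change of -0.05 with an interval of -0.62 to 0.53.

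The secreted factors were lower in shCBX8 without passing. Vegfa, the main angiogenic factor, had 24.1, 35.4 and 26.8 CPM in shCBX8, 40.8, 34.0 and 61.9 CPM in shCBX7 and 35.7, 49.2, 44.0 and 40.5 CPM in shCTR libraries. Its shCBX8 libraries lay below its shCTR libraries, with shCBX8 2 nearest (log2 fold change -0.56, SE 0.22, adjusted p = 0.0803). It passed without shCBX8 2 (-0.73, adjusted p = 0.0439) and without shCBX7 5 (adjusted p = 0.0418). Adm, the vasodilator peptide adrenomedullin, had 7.46, 30.8 and 9.89 CPM in shCBX8, 17.4, 96.4 and 29.0 CPM in shCBX7 and 24.5, 109, 33.8 and 41.8 CPM in shCTR libraries. Replicate 2 was the highest of each group, and within each shared replicate number shCBX8 was below shCTR. The test without a block gave log2 fold change -1.70, SE 0.77, adjusted p = 0.116. With the replicate block Adm passed (-1.85, adjusted p = 0.00147), as it did without shCBX8 2 (-2.59, adjusted p = 0.0434).

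The remaining members are other hypoxia targets. Car9 (ENSMUSG00000028463, chromosome 4, 43506966 to 43513729, plus strand), a membrane carbonic anhydrase that handles acid and a standard hypoxia marker, had 2.51, 0.962 and 2.21 CPM in shCBX8, 0.674, 0.475 and 0.927 CPM in shCBX7 and 0.911, 0.952, 0.747 and 0.691 CPM in shCTR libraries. It was very low throughout, at 16 to 120 reads, and shCBX8 1 and 6 carried its rise, while shCBX8 2 barely exceeded shCTR 2 (log2 fold change 1.21, SE 0.37, adjusted p = 0.0356). Of its reads, 40.2% lay on the opposite strand, where shCBX8 libraries had 40, 26 and 60 reads. The call ended without shCBX8 1 or 6, shCBX7 1 or any of the shCTR libraries (adjusted p = 0.0517 to 0.144), with the replicate block (adjusted p = 0.0606) and with unstranded counts (0.83, adjusted p = 0.0887). Ndrg1, a stress protein induced in hypoxia and differentiation, had 89.4, 65.3 and 102 CPM in shCBX8, 18.7, 20.3 and 55.3 CPM in shCBX7 and 34.8, 58.3, 44.5 and 29.9 CPM in shCTR libraries. Its shCBX8 libraries were the 3 highest of all 10, yet it missed the threshold (log2 fold change 1.03, SE 0.39, adjusted p = 0.0670). It passed with the replicate block (1.24, adjusted p = 0.0400) and without shCBX7 5 (adjusted p = 0.0154). Ankrd37, an ankyrin repeat protein and HIF target, had 1.07, 2.22 and 1.14 CPM in shCBX8 and 1.62, 1.65, 2.171 and 0.720 CPM in shCTR libraries, with 23.0% of its reads on the opposite strand (log2 fold change -0.06).

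A split inside the shCBX8 group ran through many of these genes. Over all genes tested, log2 CPM correlated at r = 0.995 between shCBX8 1 and 6. With shCBX8 2, they correlated at 0.964 and 0.957. Pairs within shCTR correlated at 0.941 to 0.988, and pairs within shCBX7 at 0.965 to 0.980. Thus shCBX8 1 and 6 were more alike than any other pair in a group. The distance of shCBX8 2 from them was within the range of the other groups. In Slc2a1, Slc16a3, Eno2 and P4ha1, shCBX8 1 and 6 were alike and low, and shCBX8 2 was much higher. Within shCBX8 the fibroblast marker sum showed the same order, at 292, 2956 and 194 CPM in shCBX8 1, 2 and 6, against 11511, 32618, 7144 and 5635 CPM in shCTR 1, 2, 5 and 6, with 5401, 18187 and 6724 CPM in shCBX7 1, 2 and 5. Outside shCBX8 the order held only in part. In shCTR 2, Slc16a3 (19.6 CPM) and P4ha1 (256 CPM) were the highest of shCTR, but Slc2a1 (88.4 CPM) and Eno2 (61.2 CPM) were not. In shCBX7 2, Slc16a3, P4ha1 and Eno2 were the highest of shCBX7, but Slc2a1 was not. A link between these genes and the fibroblast markers was not tested. The sustentacular marker sum, led by Krt8 and Krt18, ran the other way, at 8714, 3634 and 10353 CPM in shCBX8 1, 2 and 6. Without shCBX8 2, 13 of the 33 genes passed (5 higher, 8 lower), with Slc2a1, Slc16a3, Vegfa and Adm among those lower. In Gapdh, Ero1l and Pdk1, shCBX8 2 lay with the other shCBX8 libraries.

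**Figure D3:**
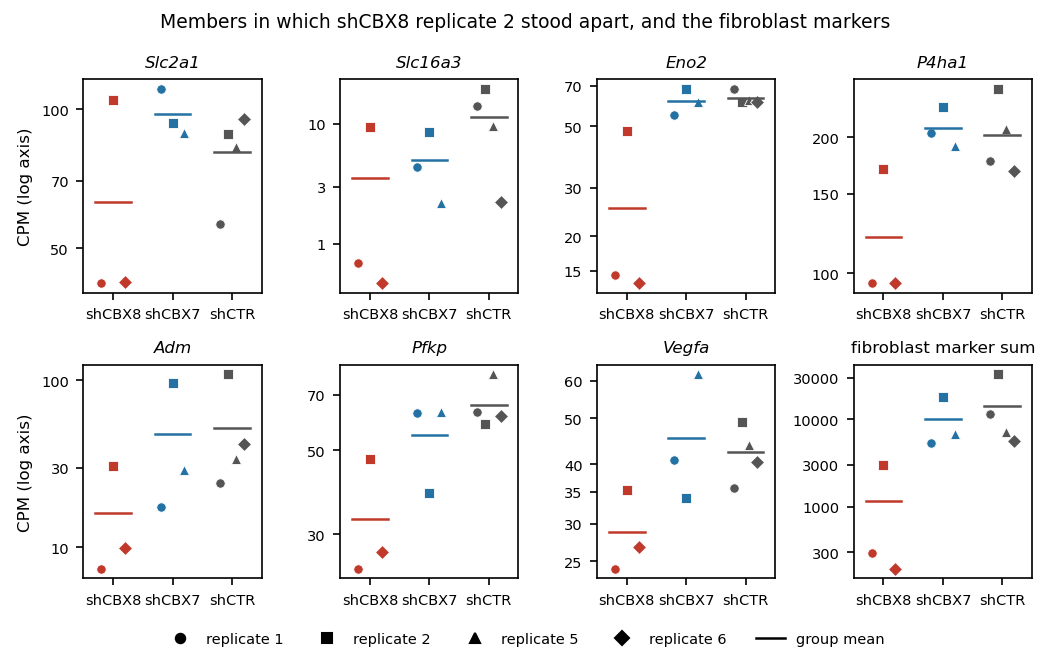
Levels in CPM on log axes for 7 genes, chosen after their values were seen, in which shCBX8 2 (square) was the highest of the shCBX8 libraries, beside the sum of the 8 fibroblast markers. In shCBX8 the circle and the diamond (replicates 1 and 6) lie below the square in every panel, and in the fibroblast panel replicate 2 is the highest of each group. Within shCTR replicate 2 is the highest in Slc16a3, P4ha1, Adm and Vegfa, and not in Slc2a1, Eno2 or Pfkp.

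Some steps are served by several genes, and the share of each form in the length-scaled level of its step is given here as a description with no test of its own. The shCBX8 and shCTR shares did not overlap for hexokinase, enolase, Pfkl and Pfkp, and they overlapped for Pfkm, aldolase, lactate dehydrogenase and both kinds of prolyl hydroxylase. Hk2 made up 44.5, 33.5 and 48.3% of the Hk1 and Hk2 level in shCBX8, 21.0, 19.6 and 26.2% in shCBX7 and 22.3, 18.6, 27.9 and 29.9% in shCTR libraries. Pfkl took 60.1, 54.4 and 55.8% of the phosphofructokinase level in shCBX8 and 44.1, 51.4, 46.2 and 40.4% in shCTR libraries. In both steps every shCBX8 share was above every shCTR share. Eno2 gave 6.85, 18.6 and 7.53% of the Eno1 and Eno2 level in shCBX8 and 25.2, 23.3, 20.6 and 21.5% in shCTR libraries, and all of the shCBX8 shares were below. P4ha2 had 38.9, 25.9 and 40.0% in shCBX8 and 18.4, 27.8, 20.8 and 27.2% in shCTR libraries of the level it shares with P4ha1, and these overlapped. Ldhb made up 13.0 to 20.4% in shCBX8 and 11.8 to 18.4% in shCTR libraries of the lactate dehydrogenase level.

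**Figure D4:**
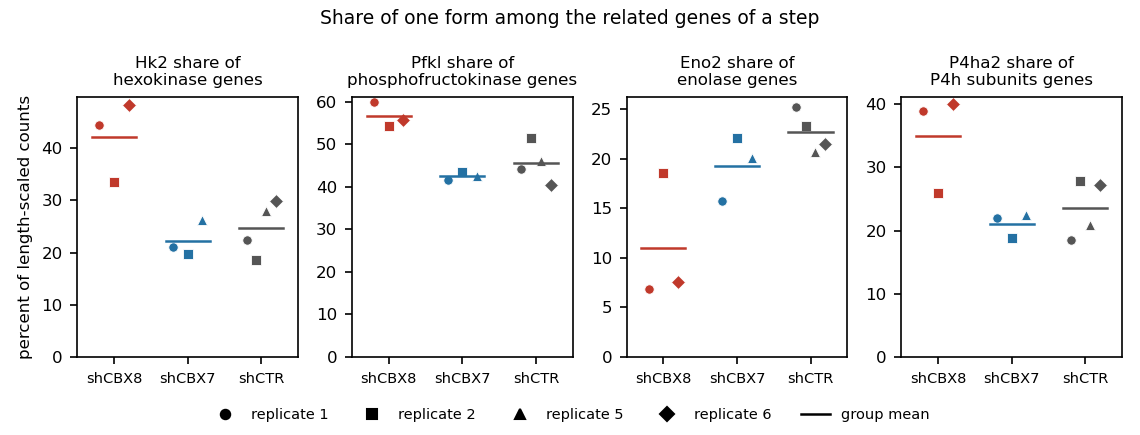
Percent of the length-scaled level of a step contributed by Hk2 (of Hk1 and Hk2), Pfkl (of Pfkl, Pfkm and Pfkp), Eno2 (of Eno1 and Eno2) and P4ha2 (of P4ha1 and P4ha2), by library, with group means as lines and each axis starting at 0. In shCBX8 the Hk2 and Pfkl shares lie above every shCTR share and the Eno2 shares below, while the P4ha2 share of replicate 2 falls among the shCTR shares.

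In shCBX7, no member passed against shCTR, and 0% of all genes did. By edgeR, 1 of the 33 (Gapdh) and 975 of all genes had an unadjusted p under 0.05, and DESeq2's Wald test called 0 of the 33 and 91 genes in all. Log2 fold changes ran from -1.17 in Slc16a3 to 0.66 in Egln3, with a median of 0.04, and 19 of the 33 were positive. All shCBX7 libraries lay above all shCTR libraries in 4 genes (Gapdh, Eno1, Pkm and Egln3), beside 1.70% of all genes, and below them in 0, beside 3.73% (5.42% in either direction). Gapdh averaged 169.9 ± 21.5 CPM in shCBX7 (SD, n = 3) and 138 ± 11.8 CPM in shCTR libraries (n = 4), and its log2 fold change 0.31, SE 0.12, adjusted p = 0.739 was the closest to passing. Eno1 had 269.8, 220.1 and 222 CPM in shCBX7 and 184, 184, 219 and 204 CPM in shCTR libraries, and Egln3 had 8.28, 6.09 and 6.56 CPM in shCBX7 and 3.84, 2.81, 5.62 and 5.36 CPM in shCTR libraries. Pkm averaged 1785 ± 210.4 CPM in shCBX7 and 1389 ± 233 CPM in shCTR libraries. The interval of a log2 fold change reached a median of 0.60 to each side over all genes.

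Set directly against shCBX7, shCBX8 differed in 12 of the 33 genes (36.4%), beside 28.6% of all genes. The 6 higher in shCBX8 were Aldoc, Gapdh, Ero1l, Higd1a, Car9 and Ndrg1, beside 15.3% of all genes, and the 6 lower were Pfkm, Eno1, Eno2, Pdk1, Egln3 and P4ha1, beside 13.3%. The groups did not overlap in 17 genes, 10 above and 7 below, beside 25.6% and 22.6% of all genes (48.2% in either direction). Higd1a had the 3 highest values in shCBX8 (log2 fold change 0.74, SE 0.19, adjusted p = 0.0194), and Gapdh likewise (log2 fold change 0.53, SE 0.13, adjusted p = 0.0163). Egln3 measured 3.54, 3.999 and 2.09 CPM in shCBX8 and 8.28, 6.09 and 6.56 CPM in shCBX7 libraries, without overlap (log2 fold change -1.12, SE 0.34, adjusted p = 0.0354). Ndrg1, at 85.4 ± 18.4 CPM in shCBX8 and 31.4 ± 20.7 CPM in shCBX7 libraries, differed by a log2 fold change of 1.44 (adjusted p = 0.0332). Pdk1 and Eno2 had -0.96 and -1.28 (adjusted p = 0.0427 and 0.0480). These calls rest on few libraries: 0 of the 33 passed without shCBX8 1 or without shCBX8 6, 3 without shCBX7 1, 2 without shCBX7 2, 4 without shCBX7 5 and 7 without shCTR 5, and with library size scaling 6 passed, all higher. With the replicate block, 8 passed (5 higher, 3 lower).

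Against shCTR, the regulators of the pathway were lower in shCBX8 more often than higher. Of the 13 genes that control HIF, 6 fell and 0 rose against shCTR, beside 15.9% of all genes lower and 17.0% higher. In all 46.2% passed, beside 32.9% of all genes, and the median log2 fold change of the 13 was -0.61. The list was chosen with earlier results of these data known. ARNT is the obligate partner of HIF alpha, and its gene Arnt fell to 17.9, 31.3 and 16.1 CPM in shCBX8, against 63.0, 77.3, 61.7 and 67.6 CPM in shCTR libraries (log2 fold change -1.63, SE 0.25, adjusted p = 0.00339). Egln2, the prolyl hydroxylase not among the 33, fell to 34.9, 41.7 and 36.8 CPM in shCBX8, against 55.9, 61.5, 53.2 and 60.2 CPM in shCTR libraries (log2 fold change -0.61, SE 0.10, adjusted p = 0.00442). Ep300, a histone acetyltransferase that serves as HIF coactivator, fell by 0.73 on the log2 scale (adjusted p = 0.00790), and so did Siah1a, a ubiquitin ligase that acts on the hydroxylases, by 0.61 (adjusted p = 0.0116), a call that ended without shCBX8 6 (adjusted p = 0.0502). The fifth was Crebbp, the coactivator related to Ep300 (-0.68, adjusted p = 0.0222). Hif1a itself, which is regulated mostly as a protein, had 243, 282 and 235 CPM in shCBX8, 305, 398 and 282 CPM in shCBX7 and 485, 674, 432 and 259 CPM in shCTR libraries. The groups overlapped, since shCTR 6 lay among the shCBX8 libraries (log2 fold change -0.87, SE 0.28, adjusted p = 0.0423). The Hif1a call ended without any of the shCBX8 libraries, shCBX7 1 or 5, or shCTR 1, 2 or 5 (adjusted p = 0.0517 to 0.134). The Crebbp call ended without shCBX8 1 or 6 (adjusted p = 0.0743 to 0.0928). The count was 3 without shCBX8 6, without shCTR 1 and 2 together and with the background covariate, and 8 with the replicate block. In shCBX7 none of the 13 passed, with 3 at an unadjusted p under 0.05, and the 2 smallest were Ep300 (-0.45, adjusted p = 0.579) and Hif3a, a further HIF alpha gene (-2.09, adjusted p = 0.693). There, 10 of the 13 had negative log2 fold changes against shCTR, with a median of -0.32. Set directly against shCBX7, 1 of the 13 was higher and 2 were lower in shCBX8 (23.1%, beside 28.6% of all genes).

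Other hypoxia targets split in direction as the 33 did. Of 40 such genes, 8 rose and 9 fell in shCBX8 against shCTR (42.5% in all, beside 32.9% of all genes), with a median log2 fold change of -0.02. Ppp1r3c, a glycogen-targeting subunit of protein phosphatase, fell to 1.28, 3.13 and 1.66 CPM in shCBX8, against 36.5, 25.7, 29.6 and 15.4 CPM in shCTR libraries (log2 fold change -3.74, SE 0.40, adjusted p = 0.00124). Narf fell too (-1.16, adjusted p = 0.00339). Ier3, an immediate early stress gene, was 399, 319 and 445 CPM in shCBX8 and 110.4, 96.6, 94.2 and 103 CPM in shCTR libraries, and rose (log2 fold change 1.94, SE 0.19, adjusted p = 0.00124). Tfrc, the transferrin receptor for iron uptake, rose to 506, 308 and 372 CPM in shCBX8, against 85.5, 61.2, 101 and 103 CPM in shCTR libraries (log2 fold change 2.172, SE 0.29, adjusted p = 0.00218). None of these 4 had overlapping shCBX8 and shCTR libraries. The count was 8 without shCBX8 1, 9 without shCBX8 6, 10 without shCTR 1 and 2 together and 6 with the background covariate. In shCBX7, 0 of the 40 passed and 1 had an unadjusted p under 0.05, Hilpda, a lipid droplet protein (0.37, adjusted p = 0.810).

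Around the entry of pyruvate into mitochondria, most genes that moved were lower. Of 14 genes, 6 fell and 1 rose in shCBX8 against shCTR, beside 15.9% of all genes lower and 17.0% higher. In all 50% passed, beside 32.9% of all genes, and the median log2 fold change of the 14 was -0.54. This list too was chosen with earlier results of these data known. Pcx, the carboxylase that turns pyruvate into oxaloacetate, fell to 13.2, 21.3 and 16.1 CPM in shCBX8, against 67.2, 64.0, 69.7 and 91.1 CPM in shCTR libraries (log2 fold change -2.11, SE 0.25, adjusted p = 0.00155). Pdk4, a sister kinase of Pdk1, fell to 2.56, 2.495 and 1.94 CPM in shCBX8, against 42.2, 50.4, 27.2 and 13.8 CPM in shCTR libraries (log2 fold change -3.84, SE 0.57, adjusted p = 0.00288). Dlat rose to 163, 123 and 182 CPM in shCBX8, against 68.8, 77.8, 67.1 and 69.9 CPM in shCTR libraries (log2 fold change 1.14, SE 0.14, adjusted p = 0.00172), while Pdhb fell by 0.53 on the log2 scale (adjusted p = 0.0132, and 0.0664 without shCBX8 6). Both encode subunits of pyruvate dehydrogenase. The count was 4 without shCBX8 1, 3 without shCBX8 6 and 4 with the background covariate. In shCBX7, 0 of the 14 passed and 1 (Pdk4, -1.16, adjusted p = 0.821) had an unadjusted p under 0.05.

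**Figure D5:**
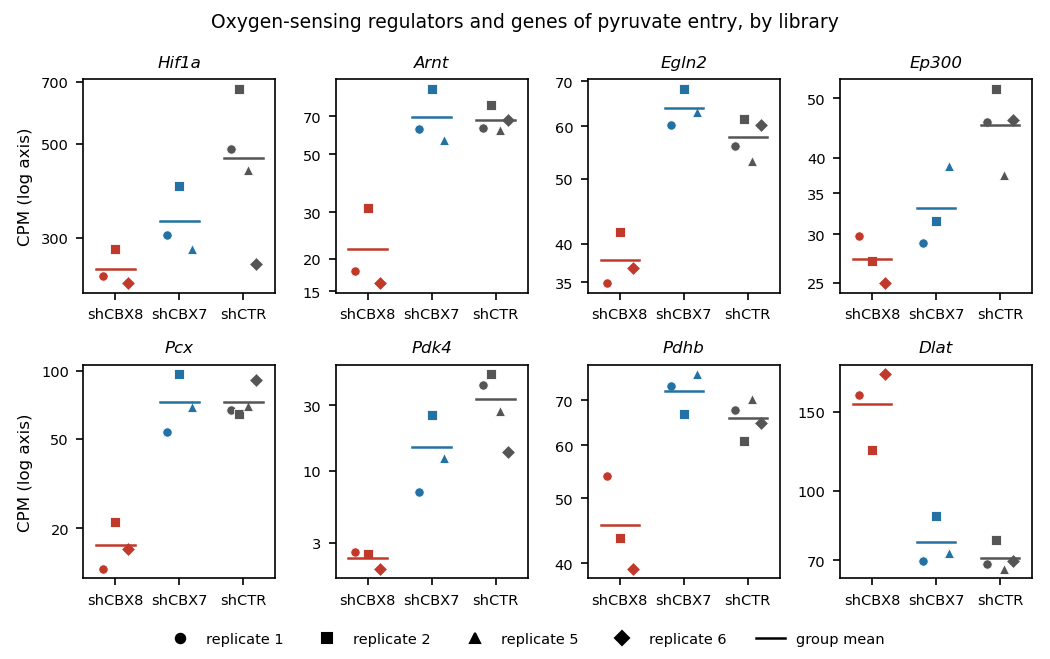
Levels in CPM on log axes for 4 genes of HIF control (Hif1a, Arnt, Egln2 and Ep300) and 4 of pyruvate entry (Pcx, Pdk4, Pdhb and Dlat), by library, with group means as lines. Arnt, Egln2, Ep300, Pcx, Pdk4 and Pdhb lie lower in all shCBX8 than in all shCTR libraries and Dlat higher, while Hif1a overlaps through shCTR 6.

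The other forms of the glycolytic enzymes and the kinases and phosphatases that set the glycolytic rate mostly did not pass. Of 16 other isoenzymes and carriers, 10 were expressed enough to be tested, of which 2 rose (20%, beside 17.0% of all genes higher and 32.9% in either direction): Eno4, an enolase of sperm (log2 fold change 1.88, SE 0.41, adjusted p = 0.0101, all shCBX8 libraries above shCTR but at most 2.06 CPM), and Eno3, the muscle enolase (log2 fold change 1.16, SE 0.39, adjusted p = 0.0467). Eno3 had 7.15, 3.97 and 9.98 CPM in shCBX8 libraries, against 3.60, 4.06, 2.78 and 2.16 CPM in shCTR libraries, which overlapped, and its call ended without shCBX8 1 or 6, shCBX7 2 or any of the shCTR libraries (adjusted p = 0.0569 to 0.191). The summed level of 8 striated muscle markers, of which Actc1, Myh3, Tnnc2, Tnnt3 and Ckm were under 1 CPM in every library, was 35.8 to 198 CPM in shCBX8 and 2.07 to 5.31 CPM in shCTR libraries, and its part in Eno3 was not tested. The Eno4 call ended without shCTR 1 and 2 together. Of 10 regulators, 8 were tested and 2 passed (25%, beside 32.9% of all genes). Tigar, a phosphatase that lowers glycolytic flux, rose to 34.1, 27.3 and 35.3 CPM in shCBX8, against 12.7, 14.2, 19.7 and 18.7 CPM in shCTR libraries (log2 fold change 0.98, SE 0.23, adjusted p = 0.0127), and Pfkfb4, which makes and removes the activator of phosphofructokinase, fell (log2 fold change -0.89, SE 0.19, adjusted p = 0.0104). Both calls ended without shCBX8 1, where 0 of the 8 passed, and that of Tigar also without shCBX8 6 (adjusted p = 0.0514 to 0.0542).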

How the data were processed

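Total RNA libraries (TruSeq Stranded, 500 ng) were processed with STAR 2.5.0a, Trim Galore 0.4.3 and bcl2fastq 2.17 on mm10, per the submitters' processing notes. Which gene annotation they used is not stated there. The authors deposited a raw read count per Ensembl gene for each strand, without normalization. Only the reverse strand entered the fits: the forward strand held 3.42 to 10.4% of stranded gene counts. Rows that name no gene stayed out: unmapped reads (5.03 to 21.7% of all reads), reads outside genes (12.5 to 23.6%), multi-mapping reads (15.4 to 22.1%) and those shared by overlapping genes (0.290 to 0.637%). GENCODE M21 gave symbols and coordinates for 40217 of 41091 identifiers, and the 874 others held at most 0.272% of a library's counts. Levels between genes are CPM per kilobase of the merged exons of basic protein-coding transcripts.

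Low counts were removed with filterByExpr (minimum count 10), libraries scaled by TMM, and edgeR 4.0.16 (R 4.3.3) fitted over all 10 libraries with group as factor. Quasi-likelihood p-values were adjusted by Benjamini-Hochberg over the 16669 genes, with 0.05 as threshold; SE is the log2 fold change over the root of F, and intervals are 95%. The fit was tested on simulated data. The median interval reached 0.61, 0.60 and 0.65 to each side in shCBX8 against shCTR, shCBX7 against shCTR and shCBX8 against shCBX7. DESeq2 1.42.0 and the other alternatives were RLE scaling, library size, 2 other filters, unstranded counts, the 2 groups alone, the replicate block, each library left out, shCTR 1 and 2 left out, a background covariate, omission of the 10 most abundant genes, and 0.01 as the threshold. For the other pathway genes and Cbx7 and Cbx8 these were added after seeing the data. No pair of libraries within a group matched within sampling noise (chi-square per degree of freedom 25.5 or more), so none was merged as a library deposited again; this does not show that they are separate cultures.

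Deviations from group means correlated between same-numbered shCBX8 and shCTR libraries (r = 0.226, 0.294 and 0.126, all over 0.1). The numbers were therefore taken as a possible pairing, from the data and not from the labels. The main fit has no block, and results with the replicate block are given beside it. Some differently numbered libraries correlated as much: shCBX8 1 with shCTR 5 (0.181) and shCTR 6 (0.128), and shCBX8 6 with shCTR 1 (0.129). Between shCBX7 and shCTR they were -0.0701, 0.758 and 0.411, which does not meet that rule for all pairs, and shCBX8 and shCBX7 share only 2 numbers.

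The 33 members and all lists were chosen with earlier results of these data known. All members are named, with up to 4 genes of each other list with the smallest p in shCBX8 against shCTR and up to 2 in shCBX7 against shCTR; Crebbp and Hif1a were named after their values were seen.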

Additional observations from a re-analysis of the deposited data

Results flagged for a closer look

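In Eno2, shCTR 1 stood apart from the other shCTR libraries at 68.3 CPM, against 61.2 to 62.4 CPM in shCTR 2, 5 and 6, with a gap of 0.830 of the group's range. In Pdk1, shCTR 6 stood apart at 21.7 CPM, against 48.0 to 53.3 CPM in shCTR 1, 2 and 5, with a gap of 0.833 of the range. Both gaps exceed Dixon's critical value for 4 samples, which chance passes in about 1 of 20 groups: 2 of the 33 shCTR groups tested did so. Without shCTR 6, the log2 fold change of Pdk1 in shCBX8 was -1.83 (adjusted p = 0.00171), and without shCTR 1 that of Eno2 was -1.32 (adjusted p = 0.0603).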

How the results depend on the processing

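Against shCTR, the number of members called in shCBX8 (10) was 3 to 13 as each library was left out, 3 without shCTR 1 and 2 together, 1 with the background covariate and 3 at a threshold of 0.01; that of all genes (5478) was 2261 to 6193, 2409, 2308 and 1844 under the same settings. In shCBX8 against shCBX7, members called (12) numbered 0 to 16 as each library was left out, 6 with library size scaling, 7 without a low-count filter, 7 with the background covariate and 0 at 0.01, while all genes (4762) numbered 1784 to 6005 and, at 0.01, 1350. In shCBX7 against shCTR, no setting called a member; all genes called (0) became 91 with DESeq2 and 0 to 41 as each library was left out. The replicate block (paired analysis) gave 12 members in shCBX8 against shCTR, gaining Adm, Slc16a3, Tpi1 and Ndrg1 and losing Aldoa and Car9, with no other call of a member changed; in shCBX8 against shCBX7 it gave 8, and in shCBX7 against shCTR 0. Among single members, 34 values under an alternative turned sign in shCBX8 against shCTR, 68 in shCBX7 against shCTR and 18 in shCBX8 against shCBX7, none of them in a called gene. With 3 or 4 libraries a group, the interval of a log2 fold change reached a median of 0.60 to 0.65 to each side over all genes. The cause of these shifts was not tested.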

Other observations

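Of 8 genes of the pentose phosphate pathway, which turns glucose phosphate into NADPH and ribose, 3 rose and 0 fell in shCBX8 against shCTR. The 37.5% that rose stand beside 17.0% of all genes higher, 15.9% lower and 32.9% in either direction. The median log2 fold change of the 8 was 0.33, beside -0.01 over all genes. Taldo1, a transaldolase that links this pathway back to glycolysis, had 331, 241 and 350.4 CPM in shCBX8, 169.9, 123 and 169.7 CPM in shCBX7 and 128, 82.5, 133 and 152 CPM in shCTR libraries, with no overlap between shCBX8 and shCTR (log2 fold change 1.31, SE 0.22, adjusted p = 0.00442). G6pdx, the enzyme of its committed step, had 108, 96.9 and 118 CPM in shCBX8 libraries, against 68.4, 61.0, 77.3 and 82.6 CPM in shCTR libraries, again without overlap (log2 fold change 0.57, SE 0.17, adjusted p = 0.0303). Its call ended without shCBX8 1 or 6, shCBX7 1 or shCTR 1, 2 or 5 (adjusted p = 0.0515 to 0.112). Rpe, an epimerase, rose with overlapping groups (log2 fold change 0.54, SE 0.18, adjusted p = 0.0448) and lost its call without shCBX8 1 or 6, shCBX7 1 or 5, or shCTR 1, 2 or 6 (adjusted p = 0.0502 to 0.180), and Tkt, a transketolase, did not pass (log2 fold change 0.63, SE 0.22, adjusted p = 0.0542). The count was 1 without shCBX8 1, shCBX8 6, shCBX7 1, shCTR 1 or shCTR 2, and 0 with the background covariate.

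Of 17 genes of the tricarboxylic acid cycle, 5 rose and 0 fell in shCBX8 against shCTR, with a median log2 fold change of 0.09. The 29.4% that rose stand beside 17.0% of all genes higher, 15.9% lower and 32.9% in either direction. All shCBX8 libraries lay above all shCTR libraries in 8 of the 17 genes and below them in 2, beside 22.9% and 19.5% of all genes (42.4% in either direction). Against shCBX7, 2 were higher and 3 lower in shCBX8 (29.4%, beside 28.6% of all genes), with a median of -0.05. All shCBX8 libraries lay above all shCBX7 libraries in 5 of the 17 genes and below them in 8. Over all genes these shares were 25.6% and 22.6% (48.2% in either direction). The 5 higher than in shCTR were the succinate-CoA ligase subunit genes Suclg2 and Suclg1 (Sucla2, a further subunit gene of it, also named after its value was seen, had a log2 fold change of -0.28, adjusted p = 0.0915), both malate dehydrogenases and Idh3a, an isocitrate dehydrogenase subunit gene likewise named afterwards (log2 fold change 0.37, adjusted p = 0.0321). Suclg2 had 56.0, 49.5 and 49.97 CPM in shCBX8, 30.0, 34.2 and 30.8 CPM in shCBX7 and 33.3, 31.2, 33.9 and 28.5 CPM in shCTR libraries, the 3 highest in shCBX8 (log2 fold change 0.71, SE 0.11, adjusted p = 0.00281). Mdh1, the cytosolic malate dehydrogenase, had 357, 210.4 and 326 CPM in shCBX8 libraries, against 194, 174, 151 and 156 CPM in shCTR libraries, without overlap (log2 fold change 0.82, SE 0.18, adjusted p = 0.0112), and Mdh2, its mitochondrial counterpart, had 188, 179 and 170.0 CPM in shCBX8 libraries, against 98.7, 90.2, 112 and 151 CPM in shCTR libraries (log2 fold change 0.67, SE 0.17, adjusted p = 0.0196). The Mdh1 call ended without shCBX8 1 (adjusted p = 0.0524) and that of Mdh2 without shCBX8 1, shCBX8 6 or shCTR 1 (adjusted p = 0.0554 to 0.0730). Suclg1 had a log2 fold change of 0.45 (adjusted p = 0.0151) and did not pass without shCBX8 1 or 6 (adjusted p = 0.0659 to 0.0671). The count was 2 without shCBX8 1, without shCBX8 6 or without shCTR 1 and 2 together, and 3 without shCTR 1. In shCBX7 against shCTR, 0 of the 8 and 0 of the 17 genes passed with edgeR or DESeq2, and 0 and 1 (Sdhb, a succinate dehydrogenase subunit, log2 fold change 0.24, adjusted p = 0.805) had an unadjusted p under 0.05.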
